A study of Homo sapiens with 12 samples.

Results

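The neutrophil-attracting CXC chemokines CXCL1, CXCL2, CXCL3, CXCL5, CXCL6 and CXCL8 were followed by RNA sequencing in HT1080 cells, a human fibrosarcoma cell line. The genes were taken by name, and 4 of the 6 were listed among the 16633 genes in either table of the series. CXCL1, CXCL3, CXCL5 and CXCL8 had a row among the 16101 genes of the PMA experiment, and CXCL3, CXCL5 and CXCL8 among the 15991 genes of the ConA experiment. CXCL2 and CXCL6 were listed in neither. In 1 experiment, cells received 40 nM PMA (phorbol 12-myristate 13-acetate, a plant phorbol ester that activates protein kinase C) for 24 h and were compared with untreated controls. In the other, cells received 40 µg/mL ConA (concanavalin A, a lectin that binds mannose- and glucose-bearing glycoproteins) for 24 h and were compared with their own untreated controls. All 12 libraries came from wild-type cells in biotin-depleted medium with 1% serum, collected 3 days after seeding, with 3 libraries in each of the 4 groups. The labels do not say whether the libraries of a group came from separate cultures, so p-values measure the spread between these libraries, which may be technical. Each treatment was given in an experiment of its own, and a difference between the treatments and a difference between the experiments cannot be told apart.

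These chemokines carry a glutamate-leucine-arginine (ELR) motif and guide neutrophils out of the blood through the receptors CXCR1 and CXCR2. CXCL8 (interleukin 8) and CXCL6 act on both receptors, and CXCL1, CXCL2, CXCL3 and CXCL5 act mainly on CXCR2. Fibroblasts, epithelial cells and many tumor cells make them when interleukin 1, tumor necrosis factor or protein kinase C switches on the transcription factors NF-kB and AP-1, and their short-lived mRNAs can accumulate quickly. The genes sit together in a cluster on chromosome 4.

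The promoters of all 6 genes were matched by symbol to RefSeq (GRCh38.p14), from 250 bases before to 50 bases after the start of transcription, and are shown because the members share an element there. Each held GGAATTTCC, the core of an NF-kB element, searched on both strands (reverse complement GGAAATTCC) and present in 162 of 35116 promoters of that length (0.461%). Counted from the start of transcription, the first base of the match lay at -78 in CXCL1, -77 in CXCL2, -78 in CXCL3, -90 in CXCL5, -89 in CXCL6 and -91 in CXCL8. The windows of 40 bases around the match are given 5′ to 3′ on the strand of each gene, with the match in capitals.

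CXCL8 (chr4:73740463-73740502, plus strand): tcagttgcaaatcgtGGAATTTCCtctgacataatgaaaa
CXCL3 (chr4:74038743-74038782, minus strand): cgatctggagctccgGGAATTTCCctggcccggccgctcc
CXCL1 (chr4:73869300-73869339, plus strand): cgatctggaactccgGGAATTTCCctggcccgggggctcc
CXCL2 (chr4:74099248-74099287, minus strand): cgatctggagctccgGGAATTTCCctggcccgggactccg
CXCL5 (chr4:73998743-73998782, minus strand): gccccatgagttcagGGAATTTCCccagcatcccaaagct
CXCL6 (chr4:73836574-73836613, plus strand): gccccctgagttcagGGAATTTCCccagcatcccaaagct

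The flanks of the match were alike in CXCL1, CXCL2 and CXCL3, and again in CXCL5 and CXCL6, and those of CXCL8 resembled neither. Over the whole promoter, CXCL1 and CXCL3 were identical at 82.5% of aligned positions and CXCL5 and CXCL6 at 83.1%. CXCL8 matched the other 5 promoters at 42.6% to 44.9%. The AP-1 element TGANTCA (its own reverse complement) was found in the CXCL8 promoter only, at -137, and in 7.71% of all promoters. The 250 bases before the start are shown for the 2 members with the highest transcript levels, with both elements in capitals where they occur.

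CXCL8 (chr4:73740319-73740568, plus strand): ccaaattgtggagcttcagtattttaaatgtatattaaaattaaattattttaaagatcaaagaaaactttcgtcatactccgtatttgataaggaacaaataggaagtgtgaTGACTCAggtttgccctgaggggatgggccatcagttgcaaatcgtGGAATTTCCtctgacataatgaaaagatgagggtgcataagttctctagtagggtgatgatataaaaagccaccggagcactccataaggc
CXCL3 (chr4:74038690-74038939, minus strand): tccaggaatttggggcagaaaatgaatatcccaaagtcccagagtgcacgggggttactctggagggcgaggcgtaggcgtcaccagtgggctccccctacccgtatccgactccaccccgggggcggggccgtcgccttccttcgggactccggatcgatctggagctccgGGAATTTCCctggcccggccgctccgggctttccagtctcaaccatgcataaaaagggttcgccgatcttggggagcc

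These matches are letters in a window and were not measured as binding, and the absence of a match says only that these letters are not in this window.

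Libraries held 33647823 to 45587449 estimated reads, with the 3 PMA libraries at 33647823 to 42190431. Values are normalized counts, which are estimated reads divided by a factor for each library, and the tables were normalized separately, so levels are compared within an experiment. Changes were tested with limma on log2(normalized count + 1) over all genes of a table with a mean of at least 10, and a gene was called where its log2 fold change was 1 or more in either direction and its Benjamini-Hochberg adjusted p was no higher than 0.0001. This scale understates the change of genes with low counts. Markers of the cells were checked first. All 10 mesenchymal and fibrosarcoma markers were listed, with summed normalized counts of 457759 to 473027 in the controls and 495426 to 520765 with PMA, and of 465986 to 549174 in the controls and 353470 to 377899 with ConA. Most of these sums were VIM and FN1, at mean control values of 195750 and 167350 in the PMA experiment and 138420 and 268830 in the ConA experiment. In this list PDGFRB was called lower with PMA (log2 -1.66) and S100A4 with ConA (log2 -1.05). Of 15 neutrophil and monocyte markers, 5 were listed in the PMA table and 4 in the ConA table, and S100A8, MPO, ELANE, FCGR3B, CSF3R, CXCR1, CXCR2 and CD14 were not listed in either. Of those listed, CSF1R had means of 303 and 330 (controls, PMA) and 357 and 260 (controls, ConA). For ITGAM these means were 35.1 and 37.2, and 3.69 and 29.4. LYZ stood at 10.8 and 2.77, and at 93.3 and 111. S100A9 stood at 9.36 and 9.01, and at 10.2 and 6.16. CD163, listed with PMA only, stood at 3.63 and 28.2.

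CXCL8 was the most abundant member in every library, by normalized count and per kilobase, and rose with both treatments. CXCL8 stood at 736, 708 and 719 normalized counts in the controls of the PMA experiment and at 39161, 42630 and 39334 in the PMA libraries. In the ConA experiment CXCL8 stood at 385, 346 and 339 in the controls and at 4904, 7161 and 6236 in the treated libraries. The treated and control libraries were far apart in both experiments. The mean went from 721 ± 13.8 (SD, n = 3) to 40375 ± 1954 with PMA, which is 56.0-fold, and from 356 ± 24.6 to 6100 ± 1135 with ConA, which is 17.1-fold. The log2 fold change was 5.80 with PMA (SE 0.043, limma adjusted p = 3.67e-15) and 4.08 with ConA (SE 0.11, limma adjusted p = 3.72e-13). Ranked by fold change among the genes tested, CXCL8 was 8 of 15153 with PMA and 115 of 15139 with ConA.

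CXCL3, a CXCR2 ligand also known as GRO-gamma, rose strongly with PMA and weakly with ConA. Its controls in the PMA experiment held 178, 181 and 164 normalized counts, and the PMA libraries held 8320, 8836 and 8899. In the ConA experiment the controls held 74.0, 77.0 and 77.1 normalized counts, and the treated libraries held 174, 269 and 198. The groups did not overlap in either experiment, and the ConA libraries were more widely spread than their controls. The mean went from 174 ± 8.77 to 8685 ± 318 with PMA (49.8-fold, n = 3 in each group) and from 76.1 ± 1.79 to 214 ± 49.1 with ConA (2.81-fold). On the log2 scale the change was 5.63 with PMA (SE 0.054, limma adjusted p = 3.27e-14) and 1.45 with ConA (SE 0.15, limma adjusted p = 1.52e-06). CXCL3 ranked 11 of 15153 by fold change with PMA and 664 of 15139 with ConA. Without the variance trend in the fit, the ConA change of CXCL3 missed the threshold (adjusted p = 0.000556).

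CXCL5, a CXCR2 ligand also known as ENA-78, was scarce. Its PMA experiment controls held 1.84, 12.5 and 1.81 normalized counts, which correspond to 2, 14 and 2 reads. The PMA libraries held 41.8, 49.4 and 43.1, or 36, 52 and 36 reads. Every PMA library was above every control, but control replicate 2 stood well above the other controls. CXCL5 differed by 3.26 on the log2 scale (SE 0.54, limma adjusted p = 0.000294), which missed the threshold for a call. Without control replicate 2 the difference was 4.01 and passed it (limma adjusted p = 3.85e-06). In the ConA experiment CXCL5 was listed at 0 in all 3 controls and at 16.02, 12.54 and 13.48 normalized counts in the treated libraries, or 16, 12 and 15 reads. Against a floor of 3 reads per library, the treated mean of 14.0 ± 1.80 was at least 4.60-fold higher than the controls. The floor covers counting error only. The mean of CXCL5 over these 6 libraries was below 10, so the gene was not tested with ConA, and with no minimum level the test called it (limma adjusted p = 6.83e-05). Every listed gene reached at least 10 estimated reads in at least 1 library, and CXCL5 did so here in the treated libraries only. Its direction with ConA is thus partly fixed by the listing, and the floor and that call are given as description.

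CXCL1, the CXCR2 ligand GRO-alpha, had a row in the PMA table alone and did not pass the test there. The controls held 10.1, 15.2 and 1.81 normalized counts (11, 17 and 2 reads) and the PMA libraries 13.9, 23.8 and 23.9 (12, 25 and 20 reads). The lowest PMA library lay below the highest control, so the groups overlapped. The means were 9.05 ± 6.77 and 20.5 ± 5.73, and the log2 difference was 1.40 (SE 0.58, limma adjusted p = 0.0547). Without control replicate 3, which held 2 reads, the difference for CXCL1 was 0.64 (limma adjusted p = 0.167). CXCL1, CXCL2 and CXCL3 are close paralogs, and the counting of shared reads among them was not given in the sources used here. In the longest coding transcript of each gene (GENCODE annotation of GRCh38), 5.73% of the 50-base windows of CXCL1 and 5.26% of those of CXCL3 were also present in CXCL2, and the longest identical stretch was 97 bases, between CXCL2 and CXCL3. Of the 50-base windows of CXCL2, 9.24% were present in another member, and no window of 100 bases was shared between members. The low CXCL1 values, the values of CXCL3 and the missing rows of CXCL2 are uncertain for this reason, by an amount that was not tested.

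**Figure D1:**
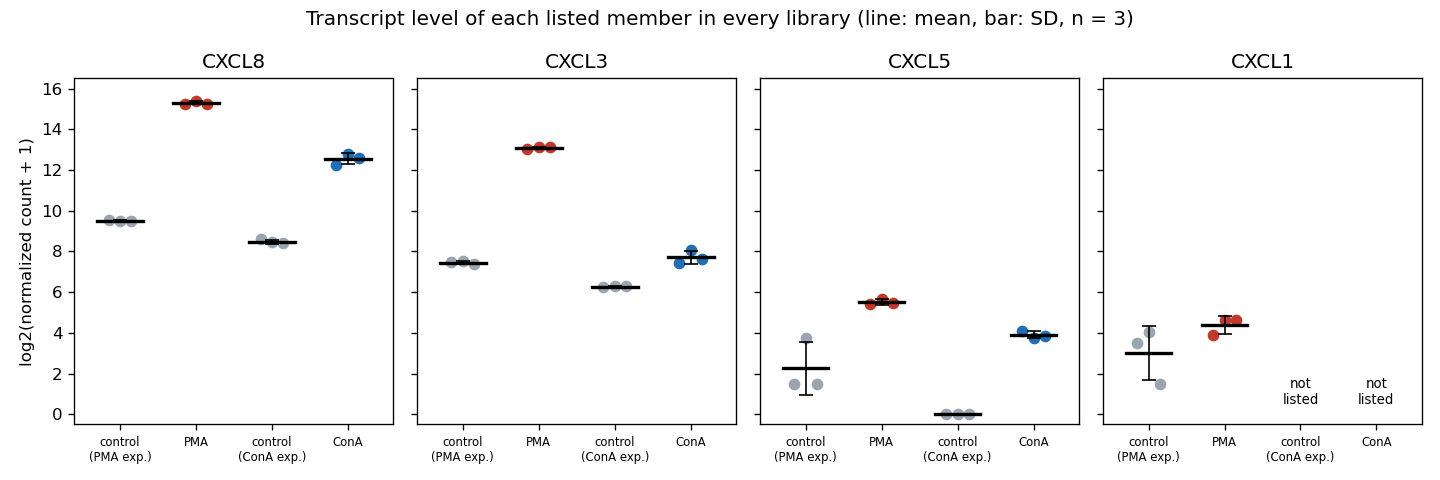
Transcript level of each listed chemokine in every library, as log2(normalized count + 1) on the y axis, by group on the x axis (exp., experiment), where points are libraries, lines are group means and bars are SD (n = 3). CXCL8 and CXCL3 rose to 40375 and 8685 mean normalized counts with PMA, and the treated libraries of CXCL1 overlap the controls.

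Among the 4 members tested with PMA, 2 were called higher (CXCL8 and CXCL3), against 4.03% of the 15153 genes tested, and none was called lower, against 4.61%. With ConA the same 2 genes were called higher among 2 tested, against 5.83% of 15139 genes, and 2.88% of genes were called lower. CXCL3, CXCL5 and CXCL8 were higher in every treated library than in every control of both experiments, a pattern shown by 33.3% of the genes listed with PMA and 34.4% of those listed with ConA. CXCL5 had its ConA row only through the treated libraries, so its place in this count is no support. In bulk RNA, fewer cells of a type and less RNA per cell cannot be told apart.

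The changes with PMA and with ConA were then compared in a fit of all 12 libraries, where each change is taken over the controls of its own table. CXCL3 differed most, with a change larger by 4.18 on the log2 scale with PMA (SE 0.16, limma adjusted p = 4.09e-13), the fifth highest among 15030 genes. CXCL8 differed by 1.73 in the same direction (SE 0.13, limma adjusted p = 5.15e-09), which ranked 180. For CXCL5, whose ConA controls were all at 0, the value depended on the pseudocount. It was -0.64 (SE 0.76, limma adjusted p = 0.481) with a pseudocount of 1, -3.5 (SE 1.1, limma adjusted p = 0.0109) with 0.1 and 0.64 (SE 0.33, limma adjusted p = 0.101) with 10, so no direction is given for this gene. In this comparison 10.6% of all genes tested were called, and 3.67% were called with the higher change in PMA.

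**Figure D2:**
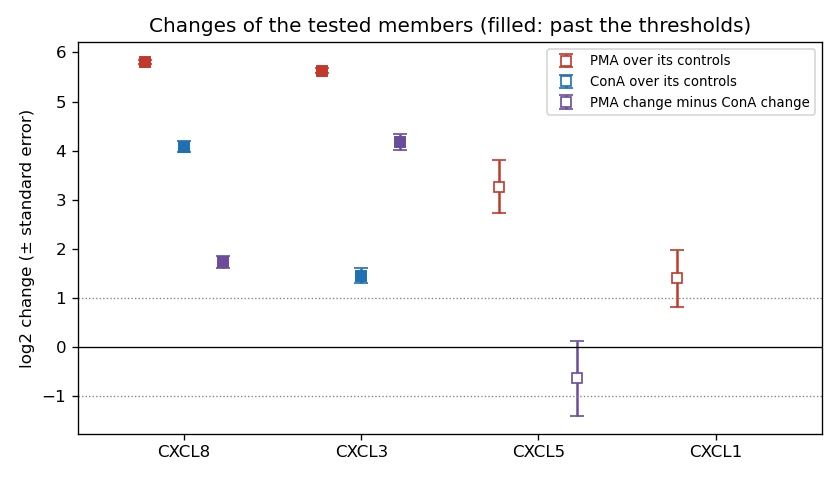
Change of each tested chemokine on the log2 scale (y axis, ± standard error from limma, 3 libraries per group) with PMA, with ConA, and the difference between these changes. Filled squares passed both thresholds, dotted lines mark the fold change threshold, and the difference is 4.18 for CXCL3 and 1.73 for CXCL8.

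The balance between CXCL8 and CXCL3, chosen for description after the values were seen, differed far more in the ConA experiment than in the PMA experiment. The ratio of CXCL8 to CXCL3 normalized counts was 3.92 to 4.38 in the controls of the PMA experiment and 4.42 to 4.82 in the PMA libraries. It was 4.39 to 5.20 in the controls of the ConA experiment and 26.7 to 31.5 in the ConA libraries. The ConA libraries stood far above all others, and the PMA libraries just above their own controls. Means were 4.14 ± 0.229 and 4.65 ± 0.208 with PMA, and 4.69 ± 0.439 and 28.8 ± 2.50 with ConA (n = 3). An exact two-sided permutation test gave p = 0.1 for each, the smallest value that 3 libraries against 3 allow.

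**Figure D3:**
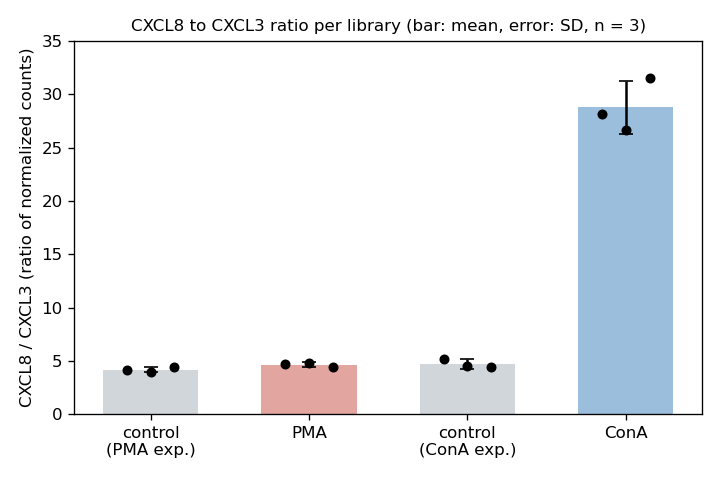
Ratio of CXCL8 to CXCL3 normalized counts (y axis) in each group (x axis; exp., experiment), where points are libraries, bars are means and error bars are SD (n = 3). The ratio is 28.8 with ConA and between 4.14 and 4.69 in the other groups.

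The ratio above was not divided by transcript length. Levels were also compared between genes after that division, with length taken from the longest coding transcript. Per kilobase, the mean ratio of CXCL8 to CXCL3 was 2.61 in controls and 2.93 with PMA, and 2.96 in controls and 18.1 with ConA. Per kilobase, CXCL8 stood at 423 ± 8.10 normalized counts in the PMA experiment controls, above CXCL3 at 162 ± 8.15, CXCL1 at 8.25 ± 6.17 and CXCL5 at 2.12 ± 2.43. With PMA the order was CXCL8 at 23680 ± 1146, CXCL3 at 8079 ± 295, CXCL1 at 18.7 ± 5.22 and CXCL5 at 17.6 ± 1.61. CXCL1 and CXCL5 overlapped in both groups, and the steps from CXCL8 to CXCL3 and from CXCL3 to CXCL1 were larger than the spread between libraries. With ConA, CXCL8 went from 209 ± 14.4 to 3578 ± 665 normalized counts per kilobase, CXCL3 from 70.7 ± 1.67 to 199 ± 45.7, and CXCL5 from 0 to 5.52 ± 0.709. CXCL8 made up 71.1% of the summed level per kilobase in the PMA experiment controls and 74.5% with PMA. In the ConA experiment its share was 74.7% in the controls and 94.6% with ConA, and that of CXCL3 went from 25.3% to 5.24%. The summed normalized count of the listed members went from 910 ± 20.0 to 49125 ± 2125 with PMA and from 432 ± 22.8 to 6327 ± 1179 with ConA (exact two-sided permutation p = 0.1 for each, the smallest possible).

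The members lie among other chemokine genes, in the RefSeq order RASSF6, CXCL8, CXCL6, PF4V1, CXCL1, PF4, PPBP, CXCL5, CXCL3, CXCL2 and MTHFD2L, followed by EPGN, EREG, AREG, BTC and PARM1. Of these 16 protein-coding genes, 9 were listed with PMA and 7 with ConA. PPBP, a platelet chemokine that is processed to a CXCR2 ligand, stood at 0, 4.47 and 1.81 normalized counts in the controls and at 61.5, 59.9 and 64.7 with PMA, and was called higher (log2 4.66, SE 0.54, limma adjusted p = 1.65e-05). PPBP had its row through the PMA libraries only, so its direction is partly fixed by the listing. That call is given as description. PF4 and PF4V1, the other platelet chemokine genes of the cluster, were not listed with PMA, and none of these 3 genes was listed with ConA. Past CXCL2, AREG (amphiregulin, a ligand of the epidermal growth factor receptor) rose with PMA (log2 2.01, limma adjusted p = 1.51e-08), whereas its ConA difference of 0.80 missed the threshold. BTC (betacellulin, another ligand of that receptor) rose with ConA (log2 3.82, limma adjusted p = 1.59e-11) and differed by -0.66 with PMA, which was not called. A list of 10 neighbours, counted over both sides together, held ALB, AFP and AFM besides the genes outside the chemokines named above. Of these 10 genes, 5 were tested in each experiment and 1 was called higher in each, against 4.03% (PMA) and 5.83% (ConA) of all genes. Their median was -0.35 with PMA and -0.26 with ConA on the log2 scale. The median of all genes tested was 0.003 with PMA and -0.002 with ConA.

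**Figure D4:**
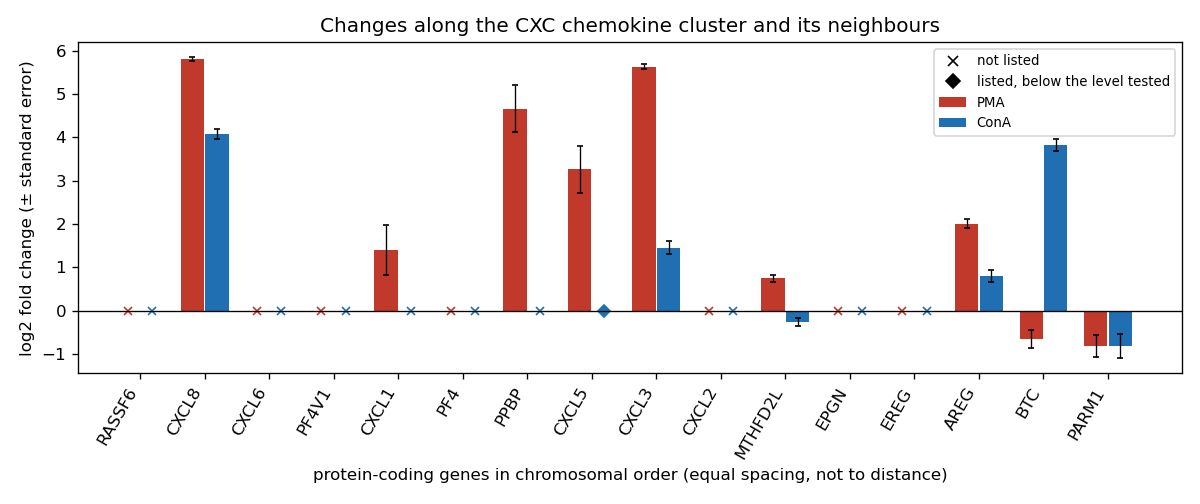
Log2 fold change over controls (y axis, ± standard error) for the protein-coding genes of the chemokine cluster and its neighbours in chromosomal order (x axis, not to distance). With PMA the tallest bars are CXCL8 (5.80), CXCL3 (5.63) and PPBP (4.66), with CXCL5 (3.26) between PPBP and CXCL3. PPBP had its row through the PMA libraries only. Several genes of the cluster were not listed, and the bar of BTC is tall with ConA (3.82).

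The receptors that read these chemokines, CXCR1 and CXCR2, were not listed in either experiment, nor was ACKR1, which binds them without signaling. Of 6 receptors 3 were tested with PMA and 2 with ConA, with medians of 0.21 and -0.73. ACKR3, a scavenging receptor for CXCL12 and CXCL11, fell by 3.92 on the log2 scale with PMA (limma adjusted p = 4.84e-08), from 185 ± 13.6 to 11.6 ± 3.45 normalized counts. It also fell by 2.41 with ConA (limma adjusted p = 1.09e-06), from 78.7 ± 10.8 to 14.2 ± 3.76. CXCR4, the receptor for CXCL12, was not called in either experiment, with values of 0.21 and 0.95.

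Of 9 other CXC and CX3C chemokines, which lack the ELR motif, 4 were tested with ConA. All 4 were called higher (median 7.16), against 5.83% of all genes tested. With PMA 2 were tested and limma called 0 of them in either direction (median -0.39), CXCL16 at -0.82 (limma adjusted p = 7.67e-05) being short of the fold change threshold and CXCL11 standing at 0.05 (limma adjusted p = 0.941). CXCL10, which attracts activated T cells, went from 19.2 ± 7.98 to 20740 ± 3666 normalized counts with ConA (log2 10.06, limma adjusted p = 1.85e-14). CXCL11, which shares the receptor CXCR3 with it, went from 19.5 ± 5.21 to 12278 ± 1862 with ConA (log2 9.25, limma adjusted p = 3.22e-15) and held 10.3 ± 1.77 and 12.8 ± 8.33 in the PMA experiment. CXCL9 rose with ConA from a mean of 0.334 to 44.1 normalized counts (limma adjusted p = 9.71e-07), and CXCL16 by 2.85 on the log2 scale (limma adjusted p = 2.02e-11). CXCL9 had its row through the treated libraries only, so its direction is partly fixed by the listing. Its place in the count and the median above is no support.

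In a list of inflammatory cytokines, their receptors and the antagonist IL1RN, 6 of 13 tested genes were called higher with PMA (median 0.97). With ConA 5 of 12 were called higher (median 0.88), and none was called lower with either treatment. Of all genes tested, 4.03% were called higher with PMA and 5.83% with ConA. IL1B (interleukin 1 beta) was abundant already in the controls. It went from 20915 ± 1325 to 219010 ± 7262 normalized counts with PMA (log2 3.39, limma adjusted p = 1.62e-12), and from 17009 ± 570 to 33460 ± 2477 with ConA, where 0.97 fell short of the fold change threshold (limma adjusted p = 6.58e-09). The change of IL1B was larger with PMA by 2.42 (limma adjusted p = 9.36e-14). IL6 (interleukin 6) rose by 5.56 with PMA and 3.94 with ConA. IL1RN, the receptor antagonist of interleukin 1, rose by 3.45 and 3.73, and TNF (tumor necrosis factor) by 1.85 and 2.15. Mean control values of IL1RN were 4.82 normalized counts in the PMA experiment and 2.34 in the ConA experiment. IL1RN had its rows through the treated libraries only, so its direction is partly fixed by the listing. IL1A rose by 1.85 with PMA, and its ConA value of 0.78 was not called. TNFRSF1B, a receptor of tumor necrosis factor, rose by 4.44 with ConA.

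Growth factors of granulocytes and macrophages differed in which genes were called. CSF3 (G-CSF), which drives neutrophil production, stood at 1.51 ± 0.528 normalized counts in controls and 81.1 ± 8.81 with PMA (limma adjusted p = 1.19e-07), and was not listed with ConA. Its row came through the PMA libraries only, so its direction is partly fixed by the listing. CSF2 (GM-CSF) rose by 2.72 with PMA and 2.18 with ConA. CSF1 (M-CSF) rose with ConA (log2 1.49, limma adjusted p = 1.2e-11) and stood at -0.02 with PMA (limma adjusted p = 0.801). In all 2 of 3 genes were called higher with PMA (median 2.72), against 4.03% of all genes tested. With ConA 2 of 2 were called higher (median 1.84), against 5.83%.

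Genes of the NF-kB pathway, whose element all 6 promoters hold, were called higher in 8 of 14 cases with PMA (median 1.11) and 6 of 14 with ConA (median 0.56), and none was called lower. The shares of all genes tested were 4.03% higher and 4.61% lower with PMA, and 5.83% higher and 2.88% lower with ConA. The inhibitors that NF-kB itself induces led the list. TNFAIP3 (A20) rose by 2.92 with PMA and 4.09 with ConA, and NFKBIA by 1.55 and 2.26. NFKBIE rose by 1.47 and 1.49, and the subunit NFKB2 by 1.33 and 1.64. The NF-kB genes did not all differ between the treatments in 1 direction. TNFAIP3 had the larger change with ConA (PMA minus ConA -1.16, SE 0.13, limma adjusted p = 4.79e-07). NFKBIA differed in the same direction as TNFAIP3 by -0.71 (limma adjusted p = 2.74e-07), short of the fold change threshold. NFKBIZ and NFKBIB, named after their values were seen, differed the other way, as CXCL8 and CXCL3 did, by 0.88 (limma adjusted p = 8.5e-06) and 0.72 (limma adjusted p = 6.89e-07), also short of that threshold.

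Of 10 AP-1 and C/EBP factors, 4 were called higher and 1 lower with PMA (median 0.58), and 1 higher with ConA (median 0.43). Over all genes tested, 4.03% were called higher and 4.61% lower with PMA, and 5.83% higher with ConA. FOSL1, an AP-1 subunit, rose by 1.81 with PMA, from 10220 ± 335 to 35844 ± 1702 normalized counts. CEBPB rose by 1.26 and JUNB by 1.20, and CEBPD fell by 1.11 with PMA. With ConA the called gene was FOS (log2 1.53). Among 8 factors that govern the stability of short-lived mRNAs, 2 were called higher with PMA (median 0.27) and 1 with ConA (median 0.26), beside the same shares of all genes. ZFP36 (tristetraprolin), which marks AU-rich mRNAs for decay, rose by 1.70 with PMA, and ZC3H12A (regnase-1), an RNase, by 1.50. ZFP36L2 rose by 1.31 with ConA.

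Proteases that can trim chemokines outside the cell were called higher in 4 of 7 tests with PMA (median 2.32) and 5 of 8 with ConA (median 2.20), and none lower. The share called higher among all genes tested was 4.03% with PMA and 5.83% with ConA. MMP1, the interstitial collagenase, went from 828 ± 62.7 to 41580 ± 1720 normalized counts with PMA (log2 5.65) and rose by 1.78 with ConA. MMP9, a gelatinase that cleaves CXCL8 to a more active form, rose by 4.77 with PMA and 2.25 with ConA. MMP13 rose by 2.32 with PMA and 5.77 with ConA, MMP8 by 2.88 with PMA, and MMP12 by 5.36 with ConA. DPP4, a peptidase of chemokine N-termini, rose by 2.96 with ConA. Mean control values were 2.71 normalized counts for MMP8 in the PMA experiment, and 0.681 for MMP12 and 5.71 for DPP4 in the ConA experiment. These rows came through the treated libraries only, so their direction is partly fixed by the listing.

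The genes with the pattern most like each member were found by Pearson r over the 12 libraries, with values taken over the mean of the controls of the same table, among 14660 genes tested in both experiments. The libraries fall into treated and control groups, so high r values are common, and r is given as a description. Among the genes closest to CXCL8 were IL6 (r = 0.9995) and HDAC9 (0.9987), a histone deacetylase. IL6 stood at 205, 241 and 218 normalized counts in controls and 10185, 10739 and 10510 with PMA, and at 144, 137 and 126 in controls and 1844, 2288 and 2172 with ConA. The 3 genes closest to CXCL3 were IL1B (0.9987), MTSS1 (0.9983), an actin-binding protein, and INHBA (0.9982), the activin A subunit. The genes close to CXCL3 changed by 2.63 to 3.39 with PMA and by 0.73 to 0.97 with ConA, whereas IL6 changed by 5.56 and 3.94 and HDAC9 by 1.93 and 1.32. CXCL8 and CXCL3 were not close to each other on this measure (r = 0.8988), and CXCL8 ranked 1125 among the genes like CXCL3 and CXCL3 ranked 988 among those like CXCL8.

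**Figure D5:**
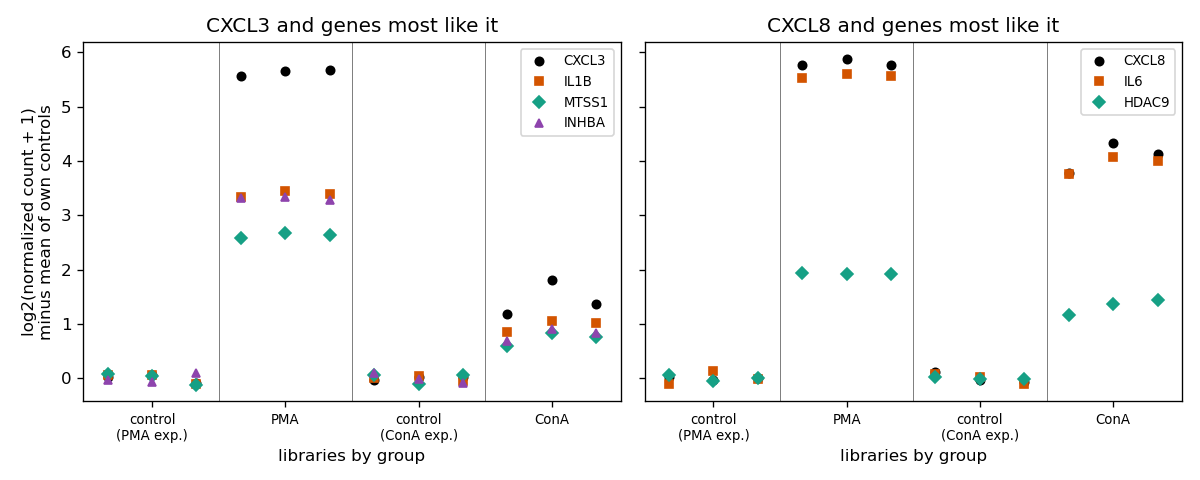
log2(normalized count + 1) minus the mean of the controls of the same table (y axis) in each library by group (x axis; exp., experiment) for CXCL3 with IL1B, MTSS1 and INHBA, and for CXCL8 with IL6 and HDAC9. With ConA, IL6 follows CXCL8 in all 3 libraries, with mean changes of 3.94 and 4.08, and IL1B, MTSS1 and INHBA stay below 1 in mean change beside CXCL3 at 1.45.

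Markers of other cells were set beside these results for the whole list. The summed neutrophil and monocyte markers were 345 to 380 normalized counts in controls and 381 to 423 with PMA, and 445 to 480 in controls and 380 to 442 with ConA. Of 10 T and NK cell markers, 9 were listed with PMA, with sums of 1251 to 1439 in controls and 4530 to 4746 treated, and 2 with ConA, with sums of 420 to 546 and 4621 to 5432. Most of that increase was IL7R, the interleukin 7 receptor, at 329 and 3021 mean normalized counts with PMA and at 441 and 5114 with ConA. Without IL7R the sums were 931 to 1092 and 1430 to 1770 with PMA, and 21.9 to 31.0 and 21.6 to 26.1 with ConA. Markers of all leukocytes, 5 listed with PMA and 4 with ConA, summed to 7443 to 7485 and 7735 to 8709 with PMA, and 8327 to 8860 and 9535 to 9992 with ConA. Most of that sum was LCP1, at mean control values of 6503 in the PMA experiment and 8179 in the ConA experiment. Mean control values of the others in the PMA experiment were 180 for PTPRC, 115 for CD53, 419 for CORO1A and 252 for LAPTM5. In the ConA experiment PTPRC was not listed, and CD53 stood at 5.10, CORO1A at 323 and LAPTM5 at 91.7. In these lists CD163 and GNLY were called higher besides IL7R with PMA, and LAPTM5 besides IL7R with ConA. CD163 had its row through the PMA libraries only, so its direction is partly fixed by the listing. B cell markers, 1 listed with PMA and 2 with ConA of 5, summed to at most 21.6 in any library. Endothelial markers summed to 165 to 209 and 208 to 218 with PMA, and to 191 to 242 and 261 to 280 with ConA. Epithelial markers summed to 27635 to 29524 and 15625 to 16271 with PMA, and to 39189 to 40760 and 34581 to 37455 with ConA. Among the epithelial markers KRT8 was called lower with PMA (log2 -1.22). The part of these marker levels in the chemokine changes was not tested.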

How the data were processed

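PolyA RNA of 12 HT1080 libraries (3 per group, 4 groups) was sequenced, and the authors deposited a table of normalized counts for each experiment. In these tables the deposited signal is the estimated reads of a gene divided by a factor for the library, with no division by length. The submitters' processing notes, per the labels, name Partek, Bowtie2, STAR, DESeq2, hg19 and mm10 with no role or version. Between 80.1% and 82.4% of values from 5 to 60 corresponded to whole reads (tolerance 0.02), so count models were not used. Every listed gene reached at least 10 estimated reads in at least 1 library. Tests used limma 3.58.1 with a variance trend (R 4.3.3, pseudocount 1, mean of at least 10), separately by table, with 4 group means for the difference. The fits by table were checked on simulated whole-number counts, and the fit for the difference was not. The limits for a call are the fold change and false discovery rate printed on the study's Venn diagram. Group sums and ratios were compared by exact permutation tests. Squared differences between replicates were 3.53 to 16.4 times the sampling variance. Alternatives were the pseudocount, the minimum level, quantile normalization, median centring, no variance trend, a fit of all libraries, the p limit, the replicate block and leaving out each library. Genes named in the text are the 6 members, at most 4 called genes per list and treatment by fold change, and the 3 genes most like each member, with a few named for context. Of the genes most like CXCL8, 1 is not reported here. The members, gene lists, marker lists and motifs were chosen with earlier results of these data known.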

Additional observations from a re-analysis of the deposited data

Results flagged for a closer look

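For 2 of the chemokines the treatments differed in the size of the change, by a test of the difference itself. CXCL3 changed more with PMA by 4.18 on the log2 scale (SE 0.16, limma adjusted p = 4.09e-13), higher in 3 of 3 libraries with either treatment. CXCL8 changed more with PMA by 1.73 (SE 0.13, limma adjusted p = 5.15e-09), also higher in 3 of 3 libraries with either treatment. Of all genes tested for the difference, 10.6% were called, and 3.67% with the higher change in PMA. Of all genes listed, 33.3% with PMA and 34.4% with ConA were higher in every treated library than in every control. Each treatment has its own experiment and controls, and the treatment and the experiment cannot be told apart. No group had enough libraries for a test of single outlying libraries.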

How the results depend on the processing

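CXCL8 and CXCL3 kept their direction in all alternatives, between 5.56 and 5.83 on the log2 scale with PMA, 3.95 and 4.23 for CXCL8 with ConA, and 1.28 and 1.59 for CXCL3 with ConA. Without the variance trend the genes called were 867 with PMA and 662 with ConA (against 1310 and 1318), and the members called with ConA were 1 in place of 2, since CXCL3 (1.45) had an adjusted p of 0.000556. With no minimum level, and in the fit of all 12 libraries, CXCL5 was also tested with ConA and 3 members were called. CXCL5 had its row with ConA only through the treated libraries. CXCL5 with PMA was called with a pseudocount of 10 (1.9, adjusted p = 5.09e-05), in the fit of all 12 libraries (3.26, adjusted p = 4.37e-05), at an adjusted p limit of 0.05 and without control replicate 2, and CXCL1 was called in none (0.64 to 1.91, adjusted p = 0.0163 to 0.167). The difference of CXCL5 between treatments changed sign with a pseudocount of 10 (0.64), with quantile normalization (0.99) and without control replicate 2 (0.11), over a range of -1.02 to 0.11 when each library was left out, and was -3.5 with a pseudocount of 0.1 (adjusted p = 0.0109); its ConA controls were all at 0. Other scalings moved the median of all genes by less than 0.1. With the replicate block, 1264 genes and the same number of members (2) were called with PMA, and no member's call changed. Same-numbered PMA and control libraries correlated at -0.0636, 0.0964 and 0.0964, not every library correlated best with its own number, and they were not treated as pairs. No paired analysis was possible for ConA because its groups share no replicate number. Low read numbers limit what can be said of CXCL1 and CXCL5.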
